A study of Mus musculus with 6 samples.

Results

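The circadian clock genes examined here are 10 genes of the mouse table, Arntl, Clock, Nr1d1, Nr1d2, Per1, Per2, Per3, Cry1, Cry2 and Dbp, taken by symbol from the 55401 gene identifiers. All 10 matched a single identifier, and all 10 passed the filter on low counts. The levels come from RNA sequencing of mouse group 3 innate lymphoid cells (ILC3s), which are lymphocytes of mucosal tissue that lack antigen receptors and release interleukin 22. Per the labels, the cells were of wild-type genotype, came from the lamina propria of the small intestine, and had been treated beforehand with vehicle (3 libraries) or with PEox (3 libraries). The protocol text adds that the animals were pups, but names the sorted cells as epithelial cells with EpCAM and without CD45, in conflict with the cell type label. PEox is not spelled out in the labels; in work on ferroptosis, an iron-dependent cell death by lipid peroxidation, it usually stands for oxidised phosphatidylethanolamine. Its dose, the exposure time, the number of animals and the time of day at which cells were taken are not stated in the sources used here. Nothing states that each library had its own animal, and the p-values below therefore reflect library-to-library spread that could be technical.

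The clock of mammalian cells is a loop of transcription factors. BMAL1 (the product of Arntl) and CLOCK bind E-box sequences and switch on the Per and Cry genes, whose proteins return to repress them. In a coupled loop BMAL1 and CLOCK drive Nr1d1 and Nr1d2, which encode the repressors REV-ERBα and REV-ERBβ, and these compete with ROR activators for ROR elements near Arntl. Dbp is a direct BMAL1 and CLOCK target whose product acts at D-box sequences. ILC3s depend on this machinery in the gut, where loss of Arntl or Nr1d1 is known to disturb their number and cytokine output.

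In the PEox libraries the activator gene Arntl and the repressor gene Nr1d2 rose, and kept that call under all 15 other ways of processing. Clock rose and Dbp fell slightly, but these calls were lost in 5 and 9 of the 15, and the other 6 genes did not pass the test. Arntl and Nr1d2 moved most, to 1.79 and 1.81 times their vehicle level. Nr1d1, the most abundant of the 10, did not follow its paralogue Nr1d2. Of all 18253 genes tested, 37.1% were called changed (edgeR quasi-likelihood test, adjusted p under 0.05 over all tested genes), 18.3% higher and 18.8% lower. These shares rest on 3337 and 3438 genes, which became 4411 and 2715 under scaling by library size alone and 3796 and 2495 with each library's trend on transcript length and GC content removed. Against that background the clock genes' share, 3 of 10 higher and 1 of 10 lower, is near what the whole table shows. Their median log2 fold change was 0.25, where that of all tested genes was 0.00. Ranges of the CPM values (counts scaled to library depth, with TMM factors) did not overlap between the groups for 6 of the 10, 4 higher and 2 lower in PEox. Over all tested genes 50.6% did not overlap, 24.1% higher and 26.5% lower.

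Sequences around a start of the 3 genes that rose are shown first, because the coupled loop is wired through elements in such sequences. That of Nr1d1, the paralogue of Nr1d2, is shown with these sequences. They are RefSeq windows of 300 bases on build GRCm38.p6, from 250 bases before to 50 after an annotated transcript start, written 5′ to 3′ along the gene. Of the 10 genes 9 had a window, 13 windows in all, and Per2 had none. Capitals mark matches, on either strand, to 4 motifs. The ROR half-site is taken as AGGTCA, which reads as TGACCT on the other strand. Only exact letters were sought, so variants of a motif and the bases that flank the half-site in a full ROR element were not looked at. The E-box is CACGTG, and the related E′-box is CACGTT, which reads as AACGTG on the other strand. The D-box is TTATGTAA or else TTACGTAA. The Arntl window at chr7:113207261-113207560 is on the plus strand, the Clock window at chr5:76303453-76303752, the Nr1d2 window at chr14:18239057-18239356 and the Nr1d1 window at chr11:98775328-98775627 on the minus strand.
Arntl: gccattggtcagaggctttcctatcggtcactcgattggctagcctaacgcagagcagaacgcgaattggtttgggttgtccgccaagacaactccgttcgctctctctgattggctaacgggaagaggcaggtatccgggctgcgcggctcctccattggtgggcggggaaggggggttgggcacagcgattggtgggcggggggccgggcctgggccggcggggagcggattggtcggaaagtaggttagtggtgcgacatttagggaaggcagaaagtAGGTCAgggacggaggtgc
Clock: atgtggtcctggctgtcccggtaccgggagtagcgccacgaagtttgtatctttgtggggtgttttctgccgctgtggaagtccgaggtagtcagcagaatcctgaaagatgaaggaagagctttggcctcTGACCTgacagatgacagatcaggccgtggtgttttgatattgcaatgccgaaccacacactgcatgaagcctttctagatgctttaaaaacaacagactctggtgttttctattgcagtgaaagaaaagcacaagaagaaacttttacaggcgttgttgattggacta
Nr1d2: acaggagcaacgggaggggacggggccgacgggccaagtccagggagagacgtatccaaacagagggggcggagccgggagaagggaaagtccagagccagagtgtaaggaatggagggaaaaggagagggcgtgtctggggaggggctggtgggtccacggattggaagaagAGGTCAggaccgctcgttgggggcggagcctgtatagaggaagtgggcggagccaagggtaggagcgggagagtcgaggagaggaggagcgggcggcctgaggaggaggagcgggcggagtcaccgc
Nr1d1: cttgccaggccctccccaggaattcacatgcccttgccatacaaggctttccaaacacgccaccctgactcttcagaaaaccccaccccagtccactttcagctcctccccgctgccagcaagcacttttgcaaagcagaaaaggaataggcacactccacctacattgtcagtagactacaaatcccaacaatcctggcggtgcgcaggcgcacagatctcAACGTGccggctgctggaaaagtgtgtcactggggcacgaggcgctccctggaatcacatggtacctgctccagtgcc

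Each of the 3 genes that rose had a ROR half-site in 1 window, of 2 for Arntl and 3 for Clock. It began 32 bases into the transcript of Arntl, 77 bases before the start of Nr1d2 and 119 bases before 1 of the 3 annotated starts of Clock. The other Arntl window and the other Clock windows held no exact match. Per1, which did not pass the test, also had a ROR half-site, 137 bases before a start, with an E-box at 166 bases. The Nr1d1 window held an E′-box at 28 bases and neither AGGTCA nor TGACCT, but variants of the ROR element were not sought. Cry1 held an E-box at 60 and an E′-box at 79 bases, Cry2 an E′-box at 166 bases, and Per3 a pair of D-boxes at 158 and 205 bases before the start. The Dbp window held none of these letters. Over all 32851 windows of the table, 16.3% held a ROR half-site (4 of the 13 clock gene windows did), 7.15% an E-box, 4.68% an E′-box and 1.06% a D-box. These shares are per window, and a gene with 2 or 3 windows had more chances of a match. The sequences shown were picked after the calls were known, and whether such matches go with a rise was not tested. These matches describe letters, and no binding was measured in this series.

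Both activator genes of the loop rose. Arntl (ENSMUSG00000055116) stood at 49.8, 53.9 and 47.0 CPM in vehicle libraries 1 to 3 and at 90.2, 95.1 and 84.3 CPM in PEox libraries 1 to 3. Every PEox library lay far above every vehicle library, with little spread inside either group. The means were 50.2 ± 3.43 and 89.9 ± 5.42 CPM (SD, n = 3 each). This is a rise of 0.84 ± 0.08 (SE) in log2 units (edgeR adjusted p = 0.000104). Among all tested genes, 11.6% had a log2 fold change at least as high.

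Clock (ENSMUSG00000029238), which encodes the partner of BMAL1, was at 29.8, 24.0 and 28.3 CPM in vehicle and at 46.0, 32.7 and 40.2 CPM in PEox. The groups did not overlap, but PEox library 2 came close to vehicle library 1. The log2 fold change was 0.53 ± 0.15 (SE; edgeR adjusted p = 0.0204), with means of 27.4 ± 3.01 and 39.6 ± 6.69 CPM (SD, n = 3 each). It did not pass when vehicle library 2 (edgeR adjusted p = 0.0839) or 3 (0.0586), or PEox library 1 (0.0619) or 3 (0.0501), was left out. Removal of each library's trend on transcript length and GC content also ended the call, at 0.40 (edgeR adjusted p = 0.0687), but not with a replicate block added, at 0.39 (edgeR adjusted p = 0.0236). Npas2, a paralogue that can stand in for Clock, did not pass at 9.99 ± 1.13 and 11.1 ± 1.40 CPM (SD, n = 3 each; edgeR adjusted p = 0.557). Arntl2, the paralogue of Arntl, was below the filter, with at most 0.581 CPM in vehicle and no count in PEox, where 3 counts equal 0.0495 to 0.0510 CPM.

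**Figure D1:**
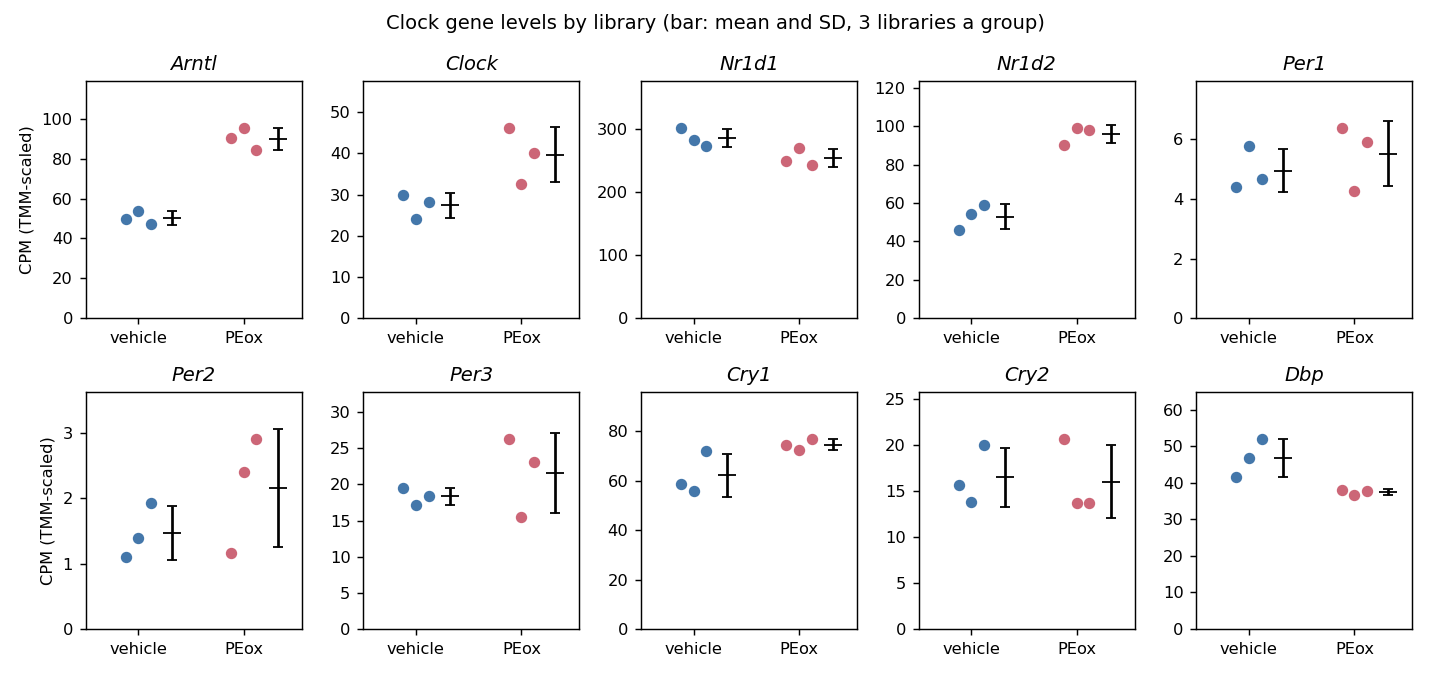
Levels of the 10 clock genes in each library, in CPM on a linear axis from 0 that differs between panels (blue, 3 vehicle libraries; red, 3 PEox libraries; bar, mean and SD). The groups are apart for Arntl, Clock, Nr1d2 and Cry1 (higher in PEox) and for Nr1d1 and Dbp (lower), and overlap for Per1, Per2, Per3 and Cry2.

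The REV-ERB genes parted. Nr1d2 (ENSMUSG00000021775) was at 45.9, 54.2 and 58.8 CPM in vehicle and at 90.4, 98.9 and 98.3 CPM in PEox, so that the lowest PEox library exceeded the highest vehicle library. Its means were 53.0 ± 6.54 and 95.8 ± 4.75 CPM (SD, n = 3 each), and the log2 fold change was 0.85 ± 0.10 (SE; edgeR adjusted p = 0.000282). A value as high was found for 11.2% of all tested genes.

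Nr1d1 (ENSMUSG00000020889) was at 301.4, 283.3 and 273.2 CPM in vehicle and at 249.99, 270.5 and 244.0 CPM in PEox. The groups were apart by a narrow margin, between vehicle library 3 and PEox library 2. With means of 286.0 ± 14.3 and 254.8 ± 13.9 CPM (SD, n = 3 each), the log2 fold change of -0.17 ± 0.06 (SE) missed the threshold (edgeR adjusted p = 0.0569). DESeq2 (adjusted p = 0.0345), limma-voom (0.0447), edgeR with a filter of 5 CPM (0.0182) and edgeR without PEox library 2 (0.0336) each called it lower. Once the trend on length and GC content was removed it lay at -0.01, where the median of all genes was 0.14. Relative to that median it lay at -0.15, against -0.17 as reported. Nr1d1 and the thyroid receptor gene Thra overlap tail to tail, by 263 exonic bases in the GENCODE M21 annotation. Thra had 301 to 472 counts in a library and Nr1d1 14717 to 19161.

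Ratios of counts inside 1 library do not depend on the scaling between libraries. The ratio of Arntl to Nr1d1 was 0.165, 0.190 and 0.172 with vehicle, in the order of the libraries, against 0.361, 0.352 and 0.346 with PEox. The ratio of Nr1d2 to Nr1d1 was 0.152, 0.191 and 0.215 in vehicle and 0.361, 0.366 and 0.403 in PEox. Both ratios were apart between the groups, so the unequal change of these genes did not rest on the choice of scaling. These ratios were chosen after the values were seen and carry no test.

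The REV-ERB proteins share their elements with ROR activators. Rora, which encodes RORα, lay at 643.8 ± 49.4 and 686.7 ± 34.5 CPM (SD, n = 3 each) and did not pass (log2 fold change 0.09, edgeR adjusted p = 0.314). Under library size scaling it was called higher, at 0.23 (edgeR adjusted p = 0.0207), where the median of all genes was 0.14. Rorb was below the filter, at 0.254 CPM or less in vehicle and with no count in PEox.

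The Per genes, the first repressor arm, did not pass. Per1 (ENSMUSG00000020893) was at 4.41, 5.78 and 4.67 CPM in vehicle and 6.37, 4.28 and 5.93 CPM in PEox, and PEox library 2 held the lowest value of all 6. Its log2 fold change was 0.16 ± 0.23 (SE; edgeR adjusted p = 0.658). Per2 (ENSMUSG00000055866) was the scarcest of the 10, at 1.10, 1.39 and 1.92 CPM in vehicle and 1.16, 2.40 and 2.91 CPM in PEox, which rest on 68 to 176 counts in a library. The groups overlapped, and the difference, 0.55 ± 0.43 (SE) in log2 units, was as large as that of Clock with a wider error (edgeR adjusted p = 0.382). Per3 (ENSMUSG00000028957) was at 19.6, 17.1 and 18.4 CPM in vehicle and 26.3, 15.4 and 23.1 CPM in PEox. PEox library 2 was again below every vehicle library while the others were above, and the log2 fold change was 0.24 ± 0.19 (SE; edgeR adjusted p = 0.399). Without that library it was 0.42 and was called (edgeR adjusted p = 0.0401).

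The Cry genes, which encode the partners of the PER proteins, differed from each other in spread. Cry1 (ENSMUSG00000020038) was at 58.6, 55.9 and 72.1 CPM in vehicle and 74.3, 72.5 and 76.9 CPM in PEox. Vehicle library 3 nearly reached the PEox libraries, and the log2 fold change of 0.26 ± 0.10 (SE) did not pass (edgeR adjusted p = 0.0792). Without vehicle library 3 it was 0.38 and was called (edgeR adjusted p = 0.0109). Cry1 was also called higher with DESeq2 (adjusted p = 0.0395), the stricter filter (edgeR, 0.0494), library size scaling (edgeR, 0.0159) and after removal of the length and GC trend (edgeR, 0.0319). Cry2 (ENSMUSG00000068742) was at 15.7, 13.8 and 20.1 CPM in vehicle and 20.7, 13.8 and 13.7 CPM in PEox. The groups overlapped fully. The difference was -0.04 ± 0.21 (SE) in log2 units (edgeR adjusted p = 0.908), and its sign turned, to between 0.054 and 0.12, under library size scaling or when vehicle library 3 or PEox library 2 or 3 was dropped. Relative to the median of all genes it stayed at -0.04 under library size scaling.

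Dbp (ENSMUSG00000059824), the output factor most directly driven by BMAL1 and CLOCK, was at 41.5, 46.7 and 52.0 CPM in vehicle and 38.2, 36.5 and 37.9 CPM in PEox. All PEox libraries lay just below the lowest vehicle library, and the vehicle libraries were the more scattered. Its means were 46.7 ± 5.21 and 37.5 ± 0.868 CPM (SD, n = 3 each), and it fell by 0.32 in log2 units (SE 0.10; edgeR adjusted p = 0.0374). The call ended in 9 of 15 alternatives, among them those that drop vehicle library 2 (edgeR adjusted p = 0.106) or 3 (0.130) or PEox library 1 (0.0631), 2 (0.0815) or 3 (0.0675). After removal of the length and GC trend the value was -0.02. Relative to the median of all genes this is -0.16, against -0.32 as reported. Dbp also shares 539 exonic bases with the sphingosine kinase gene Sphk2 on the opposite strand, 29.3% of its longest transcript. Sphk2 held 2808 to 3825 counts in a library against 2161 to 3270 for Dbp, so that, with the counting and strandedness not given, reads of the pair cannot be told apart there. Sphk2 itself did not pass (log2 fold change 0.19, edgeR adjusted p = 0.232).

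**Figure D2:**
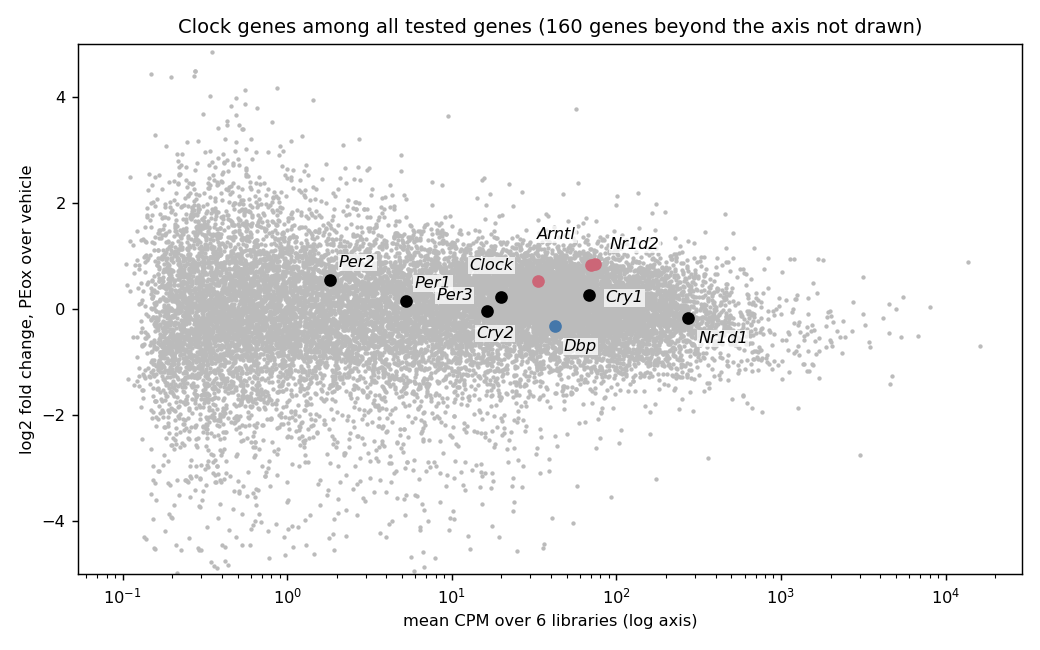
Log2 fold change of PEox over vehicle against the mean CPM (log axis) for all tested genes (grey) and the 10 clock genes (red, called higher; blue, called lower; black, did not pass). Every clock gene lies inside the cloud of all genes; 160 genes beyond the vertical range are not drawn.

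Levels of different genes were compared per length, as CPM per kb of the longest GENCODE M21 transcript. In vehicle Nr1d1 led at 105.1 ± 5.26 CPM per kb, followed by Dbp (25.4 ± 2.83), Cry1 (20.6 ± 2.87), Arntl (12.6 ± 0.859), Nr1d2 (11.4 ± 1.40), Cry2 (4.15 ± 0.809), Per3 (3.06 ± 0.205), Clock (2.81 ± 0.309), Per1 (1.06 ± 0.156) and Per2 (0.252 ± 0.0714; SD, n = 3 for each). Ranges of neighbours overlapped for Dbp and Cry1, for Arntl and Nr1d2, and for Per3 and Clock, so those pairs are not ordered beyond their spread. In PEox Nr1d1 still led at 93.6 ± 5.11 CPM per kb, and Cry1 (24.6 ± 0.717), Arntl (22.5 ± 1.36), Nr1d2 (20.6 ± 1.02) and Dbp (20.4 ± 0.473) came next. Among these the ranges of Arntl and Nr1d2 and of Nr1d2 and Dbp overlapped, whereas in vehicle both Arntl and Nr1d2 lay below the lowest Dbp value. Clock (4.07 ± 0.687), Cry2 (4.04 ± 1.01) and Per3 (3.60 ± 0.927) overlapped in turn, and Per1 (1.18 ± 0.236) and Per2 (0.369 ± 0.155) again stood last. A gene with a shorter main transcript than the longest one annotated would stand higher in this order.

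**Figure D3:**
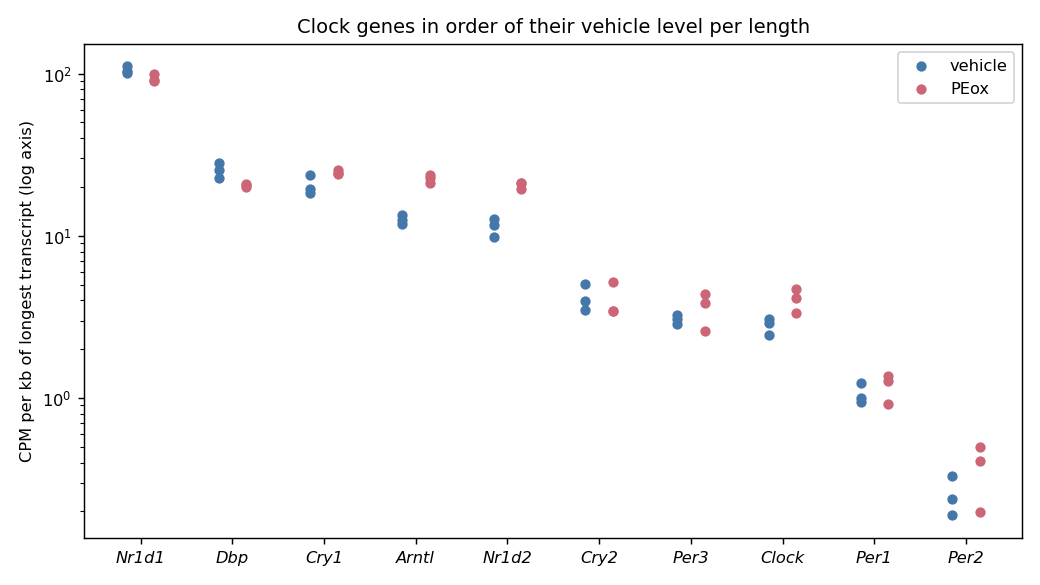
Level of each clock gene per length, in CPM per kb of the longest annotated transcript on a log axis, by library (blue, vehicle; red, PEox), ordered by the vehicle mean. Nr1d1 is highest and Per2 lowest in both groups, and Arntl and Nr1d2 lie below Dbp in vehicle but level with or above it in PEox.

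The wider clock pathway was described by 47 further genes in 6 lists, of which 45 passed the low count filter. Of these 17 rose (18.3% of all tested genes did), 7 fell (18.8%) and 21 did not pass, with a median log2 fold change of 0.15. All 17 that rose were kinases, ligases and stability factors, cofactors or outputs. Of the 8 tested transcription factors related to the loop, Nfil3 fell and none rose.

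Among those factors, Tef and Hlf, which share D-box sequences with DBP, did not pass. Tef was at 24.6, 28.9 and 27.5 CPM in vehicle and 39.1, 27.3 and 34.1 CPM in PEox (log2 fold change 0.31, edgeR adjusted p = 0.136). In 2 of 15 alternatives it was called higher, under library size scaling (edgeR adjusted p = 0.0402) and with 1 library left out (0.0290). Hlf was at 20.6, 24.0 and 22.1 CPM in vehicle and 19.7, 19.6 and 17.9 CPM in PEox (-0.22, edgeR adjusted p = 0.174). Nfil3, a repressor at the same D-box sequences and a factor needed for innate lymphoid cells to form, was at 104.2, 109.0 and 106.8 CPM in vehicle and 89.0, 84.0 and 93.8 CPM in PEox. It fell by 0.26 in log2 units (SE 0.06; edgeR adjusted p = 0.0115) without overlap. The value turned to 0.033 once the length and GC trend was removed (edgeR adjusted p = 0.751), where the median of all genes was 0.14. Nfil3 also did not pass when vehicle library 2 was dropped (edgeR adjusted p = 0.0575) or under library size scaling (edgeR adjusted p = 0.166).

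The DEC and CHRONO repressors, which act on BMAL1 and CLOCK at E-boxes, did not pass. Bhlhe40 (DEC1) was high at 577.4 ± 16.1 and 556.4 ± 11.5 CPM (SD, n = 3 each; log2 fold change -0.05, edgeR adjusted p = 0.36), and its sign turned under library size scaling and after removal of the length and GC trend. Its values there, 0.083 and 0.024, stayed below the median of all genes, 0.14 in both. Bhlhe41 (DEC2) was near 1.71 and 2.30 CPM (edgeR adjusted p = 0.422). Ciart (CHRONO) was at 8.87 ± 1.44 and 6.78 ± 1.41 CPM (SD, n = 3 each; log2 fold change -0.39, edgeR adjusted p = 0.213).

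Of 14 kinases, ligases and stability factors 6 rose, 3 fell and 5 did not pass, where 18.3% of all tested genes rose and 18.8% fell. Csnk1d, which encodes the casein kinase 1δ that phosphorylates PER proteins, rose by 0.67 (SE 0.06; edgeR adjusted p = 5.03e-05), with group means of 220.6 ± 8.40 and 350.8 ± 19.4 CPM (SD, n = 3 each). Csnk1e, its ε paralogue, rose by 0.39 (edgeR adjusted p = 0.0266), and Fbxw11, a subunit of the ligase that acts on phosphorylated PER, by 1.23 (edgeR adjusted p = 0.000372). Csnk1e did not pass when vehicle library 2 (edgeR adjusted p = 0.0949) or 3 (0.0985), or PEox library 2 (0.0769) or 3 (0.0796), was dropped, or with a replicate block (0.0657). The 2 listed subunit genes of casein kinase 2 went apart. Csnk2a1, for a catalytic subunit, rose by 0.68 (edgeR adjusted p = 0.00213), whereas the regulatory Csnk2b fell by 0.68 (edgeR adjusted p = 3.38e-05). With the length and GC trend removed the value of Csnk2b was -0.18, where the median of all genes was 0.14. Tipin and Timeless, partner proteins of the replication fork with a debated part in the clock, fell by 1.24 and 1.60 (edgeR adjusted p = 8.93e-06 and 0.00103). Csnk1e, Csnk2a1 and Timeless were chosen after their values were seen.

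Of 11 cofactors 3 rose and none fell, against the same 18.3% and 18.8%. Tbl1xr1, a subunit of the NCoR corepressor complex through which REV-ERBα acts, rose by 0.88 in log2 units (edgeR adjusted p = 0.00128), with group means of 22.4 ± 3.18 and 41.3 ± 4.62 CPM (SD, n = 3 each). Ncor1, its scaffold, lay at 432.8 ± 7.84 and 408.3 ± 4.10 CPM (SD, n = 3 each) and did not pass (edgeR adjusted p = 0.128). It was called lower with the length and GC trend removed, at -0.20 (edgeR adjusted p = 0.00905), and with the replicate block added to that (0.0213). Tbl1x (log2 fold change 0.09, edgeR adjusted p = 0.491) and Hdac3 (0.02, edgeR adjusted p = 0.871), further cofactors on the list, did not pass. These 2 were added after their values were seen. The deacetylase gene Sirt1 rose by 0.64 (edgeR adjusted p = 0.00643) and the acetyltransferase gene Crebbp by 0.32 (edgeR adjusted p = 0.0103). The Crebbp call ended once the length and GC trend was removed, at 0.12 (edgeR adjusted p = 0.229).

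Clock-controlled outputs went both ways, with 8 of 12 rising (18.3% of all tested genes), 3 falling (18.8%) and 1 not passing. Klf10, a Krüppel-like repressor gene, was at 62.3, 64.2 and 69.6 CPM in vehicle and 140.2, 139.4 and 154.8 CPM in PEox (log2 fold change 1.15 ± 0.07, SE; edgeR adjusted p = 1.22e-05). Dtx4, a Deltex ubiquitin ligase gene, rose by 0.97 (edgeR adjusted p = 0.000307). Tspan4, a tetraspanin gene, fell by 1.36 (edgeR adjusted p = 4.48e-06), and Rbm3, a cold-inducible RNA-binding protein gene, fell by 1.23 (edgeR adjusted p = 6.7e-06), with group means of 324.7 ± 25.1 and 138.7 ± 5.70 CPM (SD, n = 3 each). The list holds genes that many signals besides the clock regulate.

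**Figure D4:**
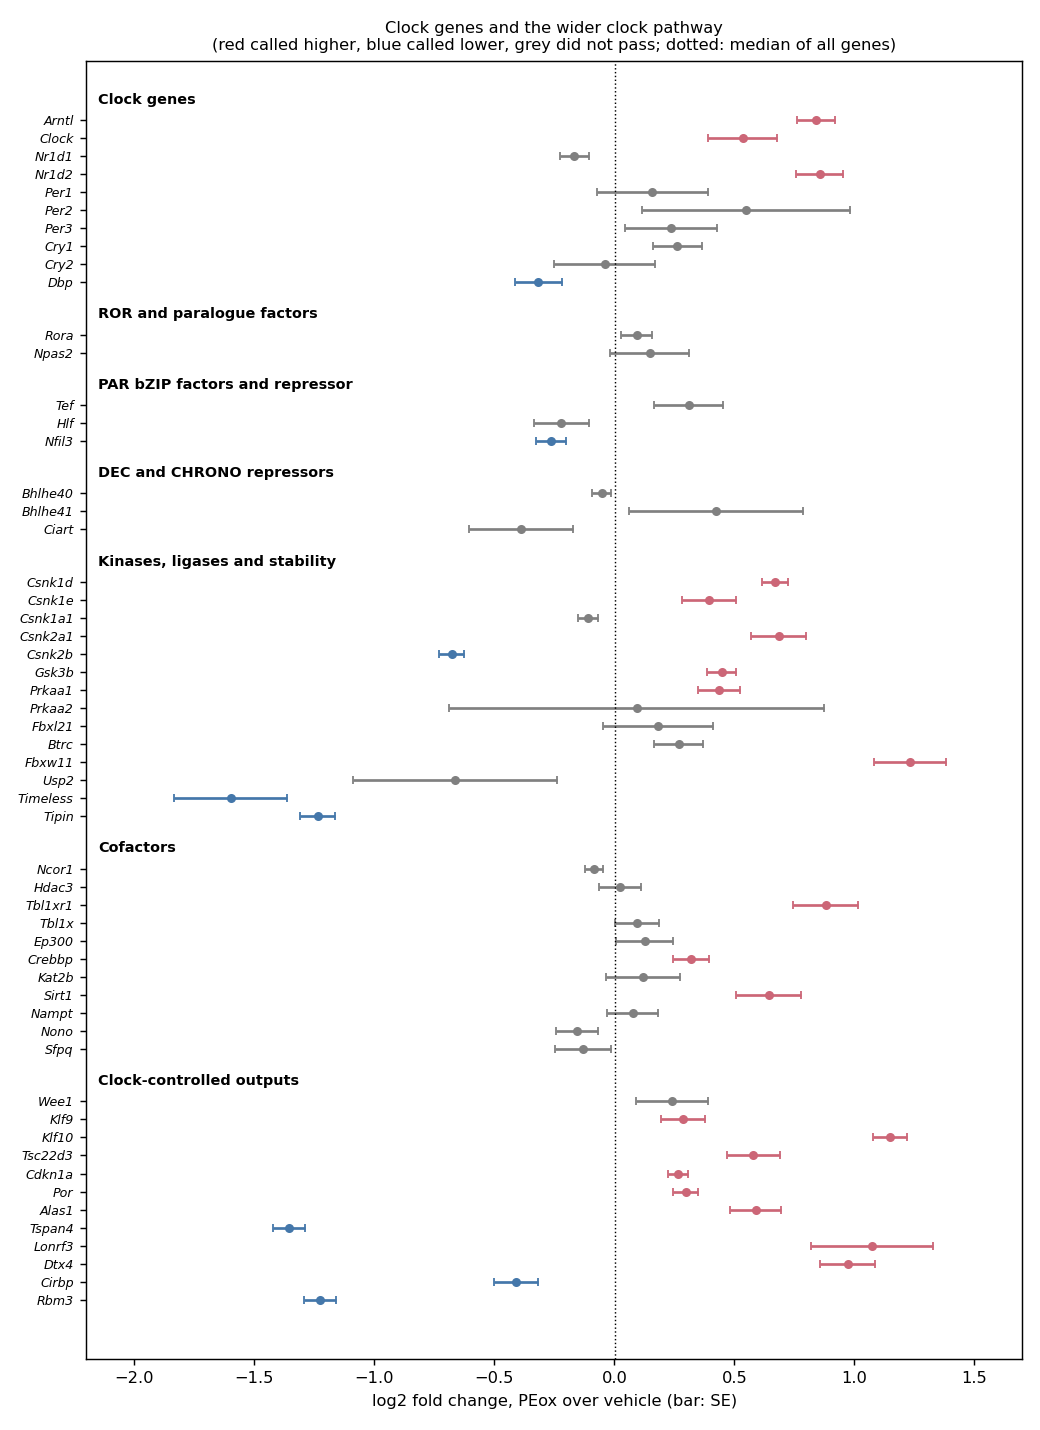
Log2 fold change of PEox over vehicle with its SE for the 10 clock genes and the 45 tested genes of the 6 pathway lists (red, called higher; blue, called lower; grey, did not pass; dotted line, median of all tested genes). Calls number 9 of 14 among kinases and ligases and 11 of 12 among outputs, where 37.1% of all tested genes were called, and the factors related to the loop hold 1 call, Nfil3, which was lower.

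Nr1d2 had the largest change among the clock genes that averaged 5 CPM or more, and the genes most like it in pattern were sought by Pearson correlation of log2 CPM over the 6 libraries. Ulk2, an autophagy kinase gene (r = 0.9997), Hspb8, a small heat shock protein gene (r = 0.999), and Jak2, a cytokine receptor kinase gene (r = 0.999), came first of 9814 candidates. With 6 libraries in 2 groups such a correlation mostly restates the group difference, and 105 candidates had r above 0.99. Ulk2 was at 26.9, 32.4 and 35.8 CPM in vehicle and 59.1, 67.8 and 66.8 CPM in PEox.

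Markers of several cell types moved between the groups. ILC3 markers were present in all 6 libraries, summing to 11297 to 11551 CPM in vehicle and 5882 to 5894 CPM in PEox, with 5 of 10 genes lower and 1 higher. Most of that sum was Il22 (6656 to 6783 CPM in vehicle and 2443 to 2553 CPM in PEox) and Id2 (2825 to 3133 and 1626 to 1722 CPM), and Kit was the gene called higher (207.6 to 236.1 and 381.9 to 479.9 CPM). Markers of B and plasma cells summed to 154.7 to 167.7 CPM and to 11.3 to 13.8 CPM (5 of 5 lower), of T cells to 103.8 to 117.3 and 42.5 to 55.1 CPM (4 of 6 lower, 1 higher; Cd8a had no count in PEox), of mast cells and basophils to 36.7 to 40.6 and 5.07 to 11.2 CPM (3 of 5 lower), and of ILC1 and natural killer cells to 174.0 to 187.2 and 59.7 to 66.0 CPM (5 of 6 lower). Myeloid markers (151.1 to 157.0 and 70.7 to 96.5 CPM, 2 of 6 lower), epithelial markers (97.6 to 111.0 and 59.2 to 66.0 CPM, 3 of 8 lower, 5 tested) and ILC2 markers (60.9 to 67.8 and 50.9 to 52.4 CPM, 2 of 5 lower, 1 higher, 4 tested) were also lower in sum. Erythroid markers were higher (2753 to 2800 and 5118 to 5804 CPM, 5 of 6 higher). The sum of stromal and endothelial markers was also higher (134.6 to 160.8 and 284.9 to 313.5 CPM, 3 of 6 higher, 5 tested). Among these the collagen genes rose, such as Col3a1 (14.8 to 21.9 and 72.0 to 80.9 CPM). The groups overlapped for the stromal Pdgfra and the endothelial Pecam1 (69.0 to 85.2 and 79.7 to 102.1 CPM), and the endothelial Cdh5 had no count in PEox. The part of these cell types in the clock gene values was not tested, and in such bulk libraries fewer cells of a type and less RNA per cell cannot be told apart.

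**Figure D5:**
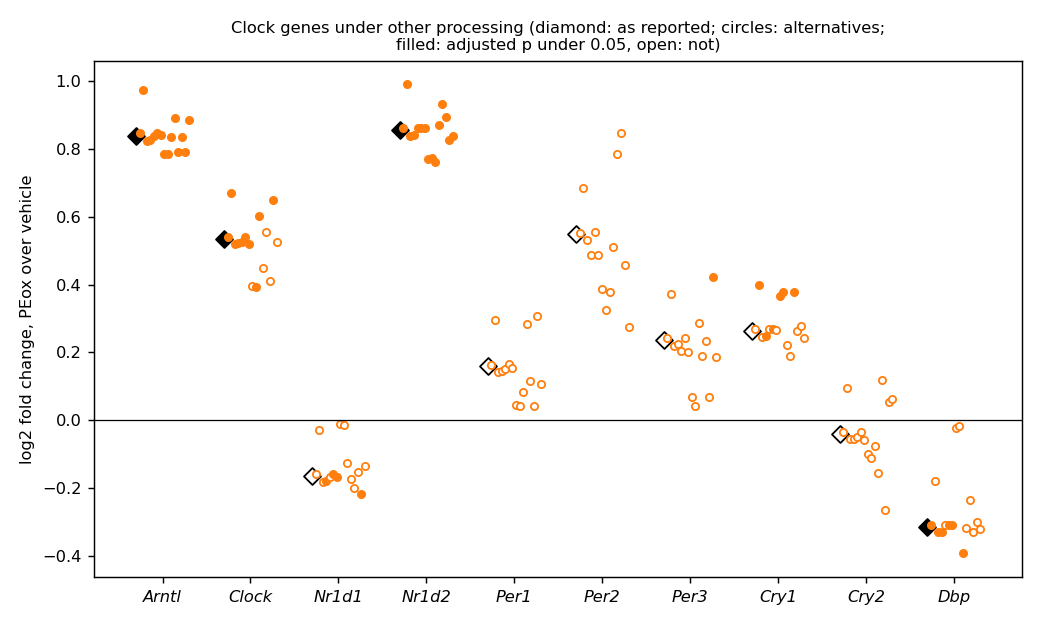
Log2 fold change of each clock gene as reported (black diamond) and under 15 other ways of processing (14 for Per2; orange circles), filled where the adjusted p was under 0.05. Arntl and Nr1d2 stay filled throughout, Clock, Nr1d1, Per3, Cry1 and Dbp cross the threshold under some, and Cry2 crosses 0.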

How the data were processed

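Per the labels' protocols, paired reads were cleaned with fastp and aligned with HISAT2 2.0.5; edgeR 3.22.5 is a further tool per the submitters' processing notes. The sources used here name no counter, genome build, annotation or strandedness. The authors deposited raw counts per gene, with no normalization; totals were 56252806 to 66849230 per library, so 3 counts equal 0.0472 to 0.0529 CPM, and such floors cover counting error only. Symbols came from a GENCODE table by identifier (260 of 55401 unnamed), and 0 count columns were left unused.

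The analysis used edgeR 4.0.16 under R 4.3.3: filterByExpr by group, TMM scaling, robust quasi-likelihood fits on group alone, and Benjamini-Hochberg adjustment over all 18253 tested genes at 0.05. SE was taken as the size of the log2 change over the square root of F. Alternatives used limma 3.58.1 (voom) and DESeq2 1.42.0, other scalings and filters, a replicate block, each library left out, and loess removal (span 0.5) of trends on length and GC content of the longest GENCODE M21 transcript, held by 99.9% of tested genes. Pairs of libraries differed by a chi-square per gene of 15.6 to 35.4 inside a group and 238 to 306 across groups, so no library was a copy of another.

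The members and lists were chosen with earlier results of these data known. Some listed genes are not reported here and were left out of list counts and sums; the fit kept all genes. Named genes were the 10 clock genes, all factors related to the loop, up to 4 genes with the smallest p-values in each other list and 3 genes of like pattern (mean of at least 5 CPM). The fits were tested on simulated data. Of 100 genes given a log2 change of 1, 52% were called in the right direction, and of 100 given a change of 2, 66%. The changed genes were drawn from all expression levels. They were a far smaller share of the genes than the 37.1% called in the data. These rates therefore do not carry over as such to the clock genes. Of 17207 unchanged genes 8 were called in this simulation, which held no length trend. A further simulation changed no gene but gave the PEox libraries a trend on transcript length. There 2248 of 17289 genes were called, and 0 once the length and GC trend was removed. The fit as reported does not remove such a trend. A gene that did not pass may still have changed.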

Additional observations from a re-analysis of the deposited data

How the results depend on the processing

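Arntl and Nr1d2 kept their direction and call under all 15 alternatives, at log2 fold changes of 0.78 to 0.98 and 0.76 to 0.99. The number of clock genes called higher was 2 to 4 (3 as reported), and the number called lower, 1 as reported, was 0 with library size scaling, the replicate block, the length and GC trend removed, and the block with that trend removed, 2 with DESeq2, limma-voom and the filter of 5 CPM, and 0 to 1 with single libraries left out. Over all tested genes 2260 were called lower with the block and the trend removed together, against 3438 as reported, 2495 with the trend alone and 3141 with the block alone, and the cause was not tested. The replicate block changed the call of Dbp (edgeR adjusted p = 0.0611) and of no other clock gene. Beyond the clock genes it changed that of Csnk1e (edgeR adjusted p = 0.0657). Deviations of same-numbered libraries correlated at 0.0292, 0.0125 and 0.0142, small values but each highest for its own number. They cannot settle whether the numbers pair the libraries, so the block was kept as an alternative only. Library size scaling moved the median of all genes to 0.14, and removal of the length and GC trend moved it to 0.14 as well (0.10 with the block). Relative to the median with the trend removed, Arntl lay at 0.65, Nr1d2 at 0.64, Clock at 0.26, Per1 at -0.09 and Per3 at -0.07. On the same measure Per2 lay at 0.25, Cry1 at 0.23, Cry2 at -0.24, Nr1d1 at -0.15 and Dbp at -0.16. Signs turned for Cry2 (0.095 with library size scaling, -0.27 to 0.12 with libraries left out), Bhlhe40 (0.083 with library size scaling, 0.024 with the trend removed and 0.024 with the block added), Ncor1 (0.052 with library size scaling), Rora (-0.051 with the trend removed, -0.048 with the block added) and Nfil3 (0.033 and 0.032 likewise). The turned values of Bhlhe40, Ncor1 and Nfil3, and that of Cry2 with library size scaling, stayed below the median of all genes in the same setting. Relative to that median they therefore did not turn, whereas Rora did, and so did Cry2 with some libraries left out. The cause was not tested. Per2 and Bhlhe41 were not tested under the filter of 5 CPM. Per2 rests on 68 to 176 counts in a library, and Prkaa2, the pathway gene with the fewest among those tested, on 15 to 55.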

Other observations

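PEox library 2 held the lowest PEox value for 5 of the 10 clock genes (Clock, Per1, Per3, Cry1 and Dbp) and the highest for 3 (Arntl, Nr1d1 and Nr1d2). PEox library 1 held the highest for 5, namely Clock, Per1, Per3, Cry2 and Dbp. In vehicle, library 3 held the highest value for Nr1d2, Per2, Cry1, Cry2 and Dbp and the lowest for Arntl and Nr1d1. The ratio of Cry1 to Cry2 was 3.74, 4.05 and 3.59 with vehicle and 3.60, 5.27 and 5.59 with PEox, in the order of the libraries, so PEox library 1 lay among the vehicle libraries. The ratio of Arntl to Dbp was 1.20, 1.15 and 0.905 in vehicle and 2.37, 2.60 and 2.22 in PEox, apart in every library. These values carry no test.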
